A study of Mus musculus with 12 samples.

Results

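The genes described here are 51 genes of the G1/S transition and of DNA replication, out of the 56691 genes listed in each deposited table. They were taken by symbol from a fixed list that covers origin licensing, helicase activation, the DNA polymerases, the sliding clamp and its loaders, nucleotide supply, E2F factors with G1/S cyclins, and chromatin supply. All 51 were found in both tables and all 51 passed the filter on low counts in every comparison. They were measured by RNA-seq in 4T1 and EMT6, mouse mammary tumour cell lines. Both were cultured in DMEM with fetal bovine serum. For each line there were 3 libraries of control cells (genotype WT) and 3 of a knockout derivative (KO, labelled sgNEDD4 after the gene its guide RNA targets), which makes 4 groups. Nedd4 encodes a HECT-type E3 ubiquitin ligase. No source used here says whether libraries within a group are separate cultures, whether a KO group is 1 clone, or whether control cells carried a guide, so the p-values measure only the spread between these libraries.

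Before a cell enters S phase, the origin recognition complex, Cdc6 and Cdt1 load the MCM2-7 helicase onto replication origins, a step called licensing. Cyclin E with Cdk2 and the Dbf4-dependent kinase Cdc7 then help convert the loaded helicase into an active one with Cdc45 and the GINS complex, and the polymerases, the PCNA clamp and the nucleotide synthesis enzymes copy the DNA. Most of these genes are transcribed in a wave at G1/S by E2F factors, which pocket proteins such as Rb hold back until cyclin D with Cdk4 or Cdk6 and cyclin E with Cdk2 phosphorylate them. Proliferating mammary tumour lines are known to express the set strongly.

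The promoters of the genes that carry the main result are shown first. RefSeq promoter sequence (GRCm38.p6, 250 bases before to 50 after the gene start) was matched by symbol for 41 of the 51 genes, and not for Ccnd1, Ccne2, Dscc1, Gins1, Gins2, Gins4, Mcm4, Pole, Prim2 and Rfc2. The letters TTTNNCGC, a loose form of an E2F-type site in which N can be any base, were searched on both strands. They occurred in 16 of the 41 (39.0%), against 5.93% of the 27025 genes with a promoter entry. The 16 were Cdc6, Cdk2, Cdt1, E2f2, Gins3, Lig1, Mcm3, Mcm5, Mcm6, Mcm7, Orc1, Pola1, Pold1, Rfc3, Tyms and Uhrf1. Each window below is 30 bases, in the direction of transcription, around the match nearest to the gene start, with every matching stretch in capitals and overlapping or neighbouring matches both marked. The first 6 belong to genes that were lower in 4T1 KO and higher in EMT6 KO, Cdt1 went the opposite way, and Cdc6, Orc1 and Uhrf1 were called in 1 line and not in the other, a difference that passed the interaction test for Cdc6 and Uhrf1 and not for Orc1 (0.16 ± 0.10, adjusted p = 0.188).
Mcm3 (chr1:20820275-20820304, minus strand): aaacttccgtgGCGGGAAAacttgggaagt
Mcm5 (chr8:75109349-75109378, plus strand): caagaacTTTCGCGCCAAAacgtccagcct
Mcm6 (chr1:128359734-128359763, minus strand): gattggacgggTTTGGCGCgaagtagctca
Mcm7 (chr5:138171849-138171878, minus strand): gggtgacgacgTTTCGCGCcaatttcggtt
Rfc3 (chr5:151651190-151651219, minus strand): cTTTCGCGCtcGCGGGAAAactctactgtc
Tyms (chr5:30073576-30073605, minus strand): gagcgccaggaaggtcctggtTTTGTCGCt
Cdt1 (chr8:122568035-122568064, plus strand): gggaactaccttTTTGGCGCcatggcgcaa
Cdc6 (chr11:98908002-98908031, plus strand): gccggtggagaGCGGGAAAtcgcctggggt
Orc1 (chr4:108579416-108579445, plus strand): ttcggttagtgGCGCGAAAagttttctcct
Uhrf1 (chr17:56303270-56303299, plus strand): gccccacttgcTTTCTCGCttcccgccaca

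The letters stand in the promoters of genes that moved either way. Of the 10 matched genes that were lower in 4T1 KO and higher in EMT6 KO, 6 held the letters, and so did 10 of the other 31 matched genes. The CCAAT box, letters bound by NF-Y, was present in 24 of 41 promoters (58.5%) against 41.1% of all genes. TTTGAA, the core of the CHR element of G2/M genes, was in 7 of 41 (17.1%) against 20.2%, and the E-box CACGTG in 7 of 41 (17.1%) against 8.09%. A match is a match of letters and does not show that a factor binds there.

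The targeted gene, Nedd4, followed the labels. Its 4T1 controls held 94.4, 97.6 and 93.5 FPKM (read counts scaled by exon length and library total), and 4T1 KO held 24.7, 24.9 and 25.3 FPKM. Its EMT6 controls held 122.5, 121.4 and 116.5 FPKM, and EMT6 KO held 12.1, 11.5 and 12.1 FPKM. No KO library reached its controls. Total counts ran from 13705612 to 19761604 per library. In 4T1, the KO libraries listed more genes with a count (20937 to 21264) than the controls (18836 to 19017) and more of the nuclear RNA Malat1 (479 to 560 against 69.3 to 155 CPM, counts scaled by library total alone), whereas in EMT6 KO Malat1 was at 158 to 200 CPM against 189 to 450 CPM. Their part in the results below was not tested. The epithelial marker Cdh1 held 8476 to 11375 counts in 4T1 libraries and at most 2 in EMT6 libraries, whereas Krt8 held 7643 to 13705 counts in EMT6. Of the mesenchymal markers, Col1a1 held 9 to 30 counts in 4T1 and 16224 to 24969 in EMT6, and Zeb1 1 to 6 and 413 to 569. Vim and Fn1 held 34090 counts or more in every library, and Cdh2 at most 1. Several markers also differed between KO and control. In EMT6, 3 of the 4 tested mesenchymal markers were called higher in KO. In 4T1, 1 of the 3 tested was called higher and 1 lower. Epcam fell in 4T1 (-1.13 ± 0.05) and, at 9 to 50 counts, in EMT6, Krt18 fell in both lines (-0.43 ± 0.04 and -1.23 ± 0.07), Krt8 fell in 4T1 (-0.79 ± 0.04) and rose in EMT6 (0.26 ± 0.07), and the macrophage marker Cd68 rose in 4T1 (0.61 ± 0.10) and fell in EMT6 (-1.38 ± 0.12). Their part in the results was not tested either. Krt5 was at 0 in all 12 libraries, and Cd3e and Lum, markers of T cells and fibroblasts, were also at 0 in all 12. Of further markers of leukocytes, endothelium and fibroblasts, Cd68 (132 to 524 counts) and Pdgfra (650 to 1075 counts) were present in both lines, and Ptprc, Adgre1, Itgam, Pecam1, Cdh5, Kdr and Dcn held at most 37 counts in any library. Within the EMT6 controls, library 3 was the lowest for 36 of the 51 genes and library 2 the highest for 33. Within the 4T1 controls, library 2 was the lowest for 35.

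Compared with its controls, 4T1 KO had lower transcript levels of most licensing genes, of Rrm2, Ccne2 and Ung, and of several clamp loader subunits, while E2f1, Cdt1, Pold1 and Pola1 were higher. EMT6 KO had higher levels of E2f1, Ccne2, Ung, Uhrf1 and most MCM subunits, while Cdt1, Orc6, Tk1 and Rfc4 were lower. A gene was called where edgeR's quasi-likelihood test gave a Benjamini-Hochberg adjusted p under 0.05 over all genes tested in the line. In 4T1, 9 of the 51 genes were called higher and 25 lower, where 57.0% of all 13313 tested genes were called (28.0% higher and 29.0% lower). In EMT6, 19 were called higher and 11 lower, where 56.0% of all 12890 tested genes were called (27.9% higher and 28.2% lower). The changes were small: the median absolute log2 change of the 51 was 0.186 in 4T1 and 0.197 in EMT6, against 0.272 and 0.301 over all tested genes. The signed medians were -0.13 in 4T1 and 0.07 in EMT6, with all tested genes at 0 and 0.001. By FPKM, all 3 KO libraries lay outside the range of the controls on 1 side for 37 of the 51 genes in 4T1 (18 above and 19 below the controls), where 61.6% of all tested genes did so, and for 31 in EMT6 (18 above and 13 below), where 62.3% did. An absolute log2 change over 0.5 was reached by 1 of the 51 genes in 4T1 (Cdc6) and by 5 in EMT6 (E2f1, Ung, Ccne2, Uhrf1 and Cdt1).

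**Figure D1:**
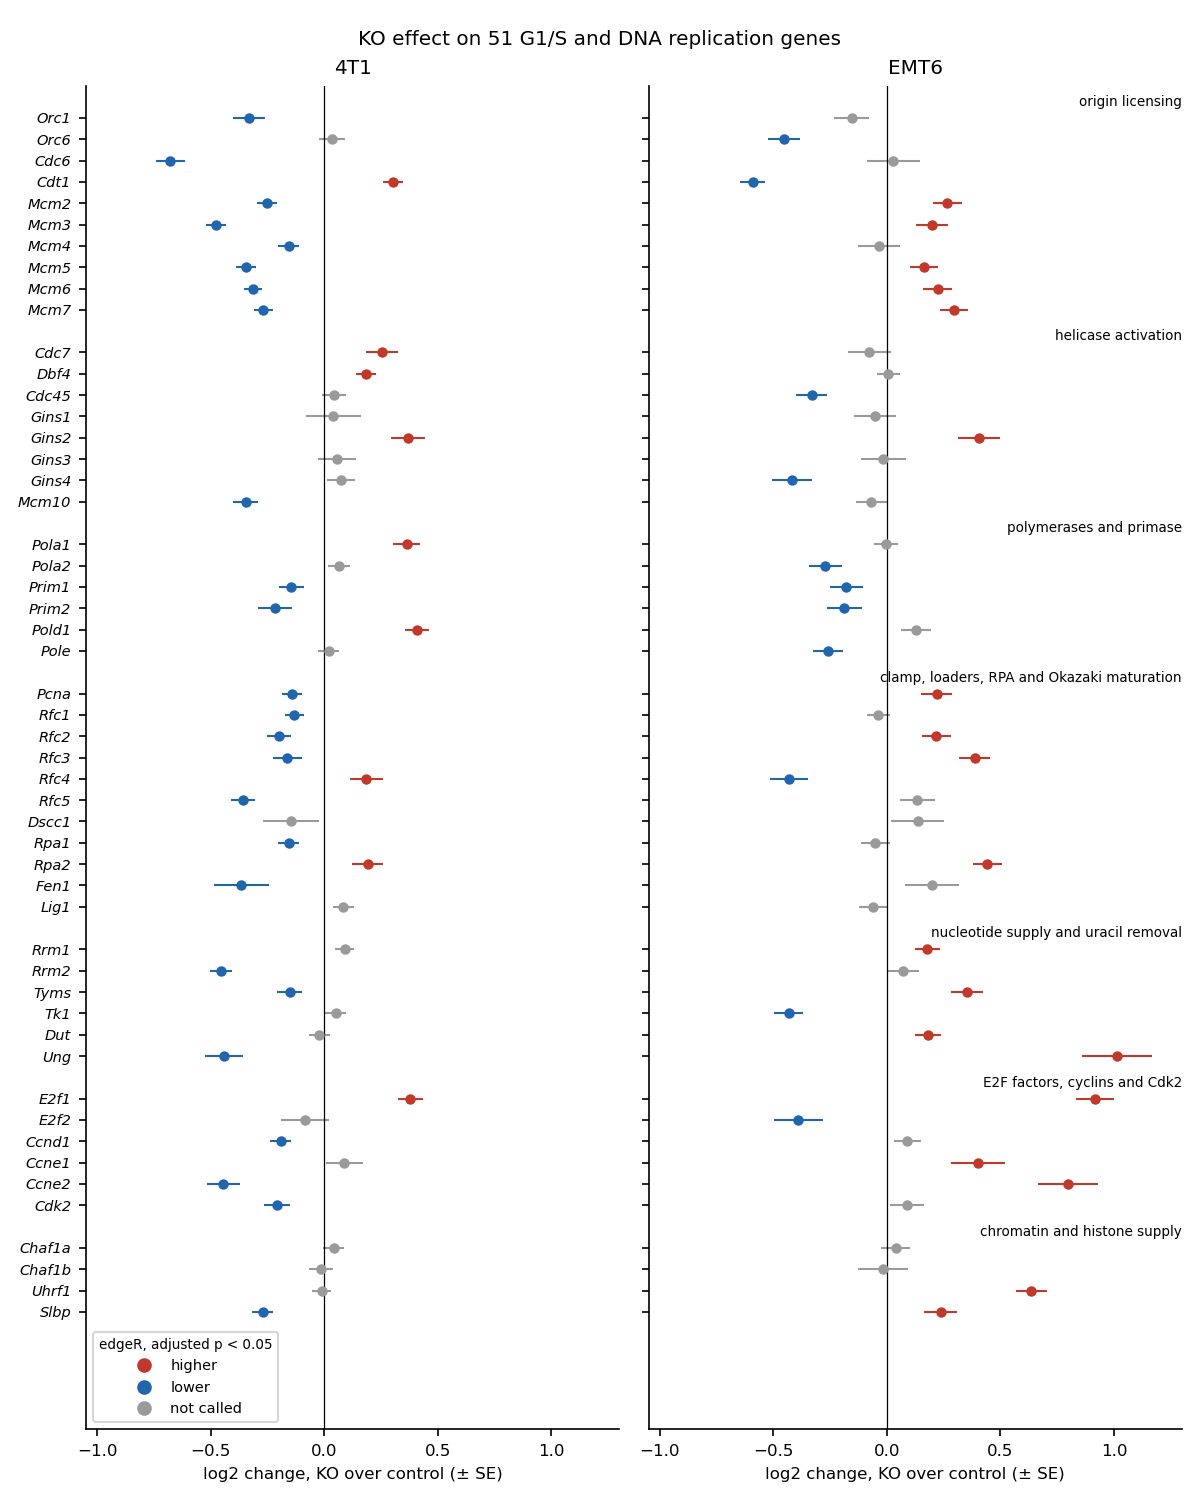
Log2 change of KO over control (horizontal axis, points with the standard error of the fit, 3 libraries against 3) for the 51 genes grouped by role, in 4T1 (left) and EMT6 (right). Red and blue points passed the test as higher (9 and 19 genes) or lower (25 and 11 genes) and grey points did not, and 5 of the 6 MCM2-7 subunits lie left of 0 in 4T1 and right of 0 in EMT6 among the called points.

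In 4T1 these counts depended on how the libraries were scaled. The test used TMM scaling, under which the median change of all tested genes in 4T1 was 0. Scaling by total counts alone, as in FPKM, moved that median to 0.08 and the share of called genes that were higher from 49.1% to 61.2%. With total-count scaling 15 of the 51 genes were called higher and 14 lower, and Cdk2, Fen1, Mcm4, Pcna, Prim1, Prim2, Rfc1, Rfc2, Rfc3, Rpa1 and Tyms lost their lower call. FPKM values of 4T1 KO below therefore sit slightly high against the log2 changes. In EMT6 the same change of scaling kept all 30 calls.

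Of the E2F factors and cyclins, E2f1, the activator of the G1/S wave, rose in both lines. In 4T1 it stood at 20.8, 18.3 and 20.6 FPKM in control cells against 28.1, 26.2 and 27.6 FPKM in KO. In EMT6 the controls held 10.4, 10.3 and 8.39 FPKM and the KO libraries 18.74, 17.99 and 18.03 FPKM. The groups did not overlap in either line. The log2 change was 0.38 ± 0.06 (SE) in 4T1 (adjusted p = 2.87e-06) and 0.92 ± 0.08 in EMT6 (adjusted p = 1.18e-07), and the difference of 0.52 ± 0.10 between the lines passed the interaction test (edgeR over all 12 libraries, adjusted p = 0.000121). E2f2, another activator E2F, fell by 0.39 on the log2 scale in EMT6 and was not called in 4T1 (-0.09 ± 0.11).

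Ccne2, which encodes cyclin E2, went in opposite directions. Its 4T1 controls held 13.4, 13.5 and 12.8 FPKM and the KO libraries 11.3, 10.3 and 9.23 FPKM, a log2 change of -0.44 ± 0.07. Its EMT6 controls held 6.56, 6.65 and 4.54 FPKM and the KO libraries 10.48, 9.28 and 11.01 FPKM, a log2 change of 0.80 ± 0.13. No KO library overlapped the controls of its line, and both KO groups ended near 10.3 FPKM (means of 10.3 ± 1.02 and 10.3 ± 0.886 FPKM, SD, n = 3) from controls at 13.2 ± 0.364 and 5.92 ± 1.19 FPKM. Ccne1, the gene of cyclin E1, rose in EMT6 (0.40 ± 0.12) and was not called in 4T1 (0.09 ± 0.08), and the difference was not called either (adjusted p = 0.107). Ccnd1, the gene of cyclin D1, stood at 311.2, 305.5 and 313.1 FPKM in the 4T1 controls and at 302.4, 286.5 and 270.1 FPKM in KO, a log2 change of -0.19 ± 0.05. In EMT6 it stood at 73.3, 69.9 and 63.4 FPKM in control cells against 75.1, 73.2 and 71.3 FPKM in KO and was not called. Cdk2, the kinase partner of cyclin E, fell by 0.21 on the log2 scale in 4T1, with overlapping FPKM and a call that was lost with total-count scaling.

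Origin licensing was the role with the largest share of genes called lower in 4T1, 8 of 10, with 1 higher. In EMT6, 5 of the 10 were called higher and 2 lower. Over all tested genes, 29.0% were called lower in 4T1 and 27.9% higher in EMT6. The MCM2-7 genes encode the 6 subunits of the replicative helicase. All 6 were called lower in 4T1 and 5 of the 6 higher in EMT6. Mcm3 had the largest MCM change in 4T1: it stood at 82.4, 83.0 and 84.2 FPKM in control cells against 64.4, 64.7 and 60.2 FPKM in KO (log2 -0.48 ± 0.05, adjusted p = 2.88e-09). In EMT6, Mcm3 stood at 43.7, 48.6 and 40.8 FPKM in control cells against 53.5, 48.3 and 50.7 FPKM in KO (0.20 ± 0.07, adjusted p = 0.0224). The EMT6 groups overlapped by 1 library, EMT6 control 2.

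**Figure D2:**
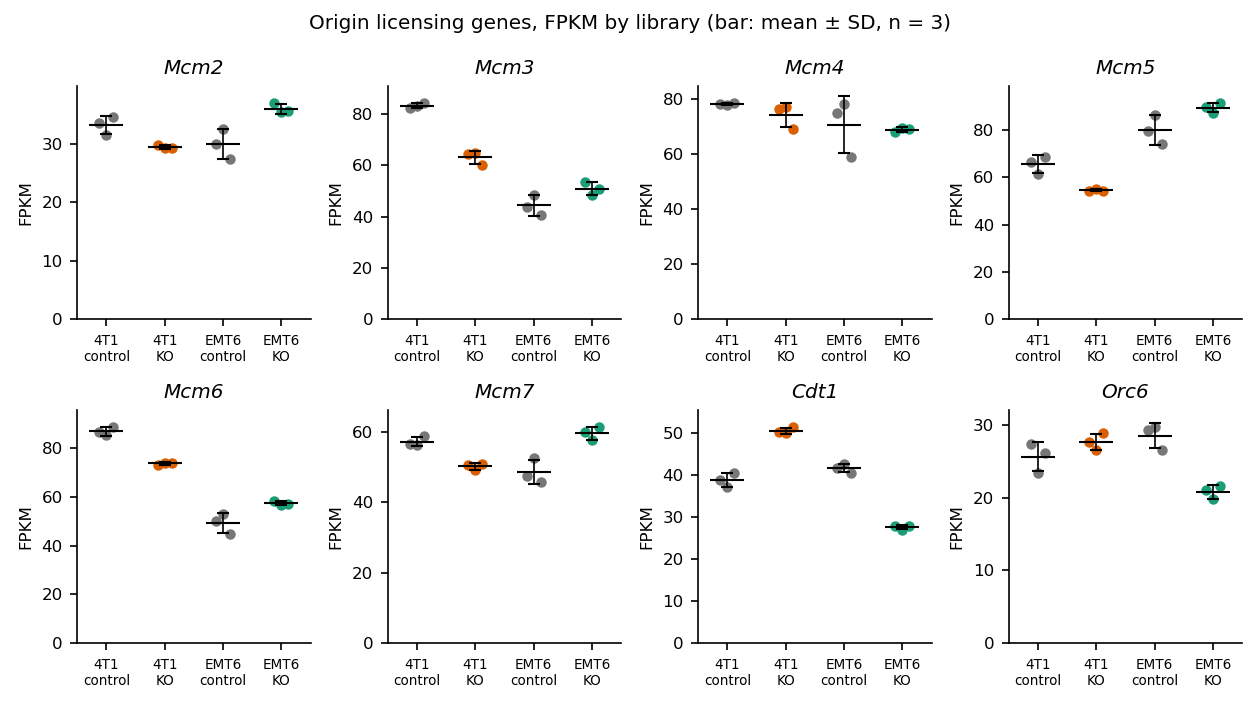
FPKM of 8 origin licensing genes in each of the 12 libraries (vertical axes start at 0; points are libraries, bars are the mean and SD of 3 libraries). Mcm2, Mcm3, Mcm5, Mcm6 and Mcm7 step down from control to KO in 4T1 and up in EMT6, where the 3 control libraries are spread more widely than the KO libraries, and Cdt1 steps the other way in both lines.

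The changes of Mcm2, Mcm5, Mcm6 and Mcm7 lay between -0.25 and -0.34 in 4T1 and between 0.16 and 0.30 in EMT6, and Mcm4 changed less. Mcm6 stood at 86.7, 85.1 and 88.4 FPKM in the 4T1 controls and at 73.05, 74.02 and 74.01 FPKM in 4T1 KO. In EMT6 it stood at 49.96, 52.98 and 44.71 FPKM in control cells against 58.4, 56.7 and 57.1 FPKM in KO. Neither line's groups overlapped, and the log2 changes were -0.31 ± 0.04 and 0.22 ± 0.06. Mcm7 went from 56.7, 56.4 and 58.7 FPKM to 50.52, 49.07 and 51.03 FPKM in 4T1 and from 47.5, 52.6 and 45.9 FPKM to 59.95, 57.68 and 61.33 FPKM in EMT6 (-0.27 ± 0.04 and 0.30 ± 0.06). For Mcm2 the 4T1 controls held 33.5, 31.5 and 34.5 FPKM and KO 29.8, 29.2 and 29.3 FPKM (-0.25 ± 0.04), and the EMT6 controls held 29.96, 32.45 and 27.4 FPKM and KO 36.9, 35.3 and 35.6 FPKM (0.27 ± 0.06). Again no groups overlapped. Mcm5 fell in 4T1 from 66.6, 61.4 and 68.8 FPKM to 54.4, 54.9 and 54.4 FPKM (-0.34 ± 0.04). In EMT6 it stood at 79.5, 86.5 and 74.2 FPKM in control cells against 89.7, 87.4 and 91.3 FPKM in KO (0.16 ± 0.06, adjusted p = 0.0349). That EMT6 call was lost when any library but EMT6 control 2 was left out, and the Mcm3 call when EMT6 control 1 or 3 or EMT6 KO 1 or 3 was left out. Mcm4 fell in 4T1 (-0.16 ± 0.05) and stood at -0.04 ± 0.09 in EMT6, where the controls ran from 59.0 to 78.2 FPKM.

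A longer stretch of the Mcm6 promoter is shown because it holds the letters TTTNNCGC on both strands, in an overlapping pair and at a further site nearer the start (capitals), as well as the reverse complement of CCAAT. The stretch is the 150 bases before the start (GRCm38.p6 chr1:128359706-128359855, minus strand).
Mcm6: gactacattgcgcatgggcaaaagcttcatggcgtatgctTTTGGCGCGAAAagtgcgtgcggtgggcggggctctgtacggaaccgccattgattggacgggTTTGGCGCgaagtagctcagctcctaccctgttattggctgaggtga

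Cdt1, the licensing factor that loads the helicase and is destroyed in S phase, changed against the MCM genes in both lines. It stood at 38.8, 37.2 and 40.5 FPKM in the 4T1 controls and at 50.29, 49.99 and 51.37 FPKM in KO, a log2 change of 0.30 ± 0.05 (adjusted p = 4.6e-06). In EMT6 it stood at 41.74, 42.72 and 40.6 FPKM in control cells against 27.89, 27.06 and 27.98 FPKM in KO, a log2 change of -0.59 ± 0.06 (adjusted p = 1.89e-07). The groups did not overlap, and the difference of -0.91 ± 0.07 between the lines had the lowest interaction p of the 51 genes (adjusted p = 1.03e-10). Cdc6, the other loader, fell in 4T1 from 14.5, 15.3 and 15.3 FPKM to 10.9, 9.02 and 9.67 FPKM, the largest decrease of the 51 genes in that line (-0.68 ± 0.06, adjusted p = 3.56e-09). The EMT6 controls held 9.26, 9.41 and 6.77 FPKM and EMT6 KO 8.39, 8.17 and 9.33 FPKM, overlapping groups with no call (0.03 ± 0.12). Of the origin recognition complex, Orc1 fell in 4T1 (-0.33 ± 0.07) and Orc6 in EMT6, from 29.3, 29.6 and 26.6 FPKM to 20.97, 19.76 and 21.61 FPKM (-0.45 ± 0.07). In 4T1, Orc6 stood at 27.3, 23.4 and 26.1 FPKM in control cells against 27.6, 26.5 and 28.8 FPKM in KO, groups that overlapped.

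Among the 8 genes of helicase activation, 3 were called higher and 1 lower in 4T1, and 1 higher and 2 lower in EMT6. That is 50% and 37.5% called, where 57.0% and 56.0% of all tested genes were. Cdc7 and Dbf4, the kinase and its activator, rose in 4T1 (0.26 ± 0.07 and 0.19 ± 0.04) and were not called in EMT6 (-0.08 ± 0.10 and 0.01 ± 0.05). Both differences between the lines passed the interaction test (-0.35 ± 0.12 and -0.20 ± 0.06). Mcm10, which helps activate the helicase, fell by 0.35 on the log2 scale in 4T1. Cdc45 and the GINS subunit gene Gins4 fell in EMT6 by 0.33 and 0.42. Gins2 was called higher in both lines (0.37 ± 0.08 and 0.41 ± 0.09), but 67.3% of its exonic bases are shared with Gse1 on the other strand in the GENCODE M21 annotation of GRCm38, and its counts are uncertain because the strand setting of the counting is not given. Gins1 and Gins3 were called in neither line. In the same annotation, 19 genes of the set share exonic bases with another gene, 4 of them at least 20%. Of the genes called in opposite directions in 4T1 and EMT6, Ccne2 shares 17.4%, Rfc2 15.1%, Rfc4 12.7%, Mcm7 12.6% and Slbp 7.8%. Their counts are open to the same uncertainty, on a smaller share of bases. Cdt1, Mcm2, Mcm3, Mcm5, Mcm6, Pcna, Rfc3, Tyms and Ung share 0%.

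The polymerase and primase genes split by subunit. Pold1, the catalytic subunit of polymerase delta, rose in 4T1 from 21.7, 20.4 and 23.9 FPKM to 29.6, 30.7 and 32.0 FPKM (0.41 ± 0.05, adjusted p = 3.41e-07), the largest increase of the 51 genes in that line. Its EMT6 controls held 16.2, 15.9 and 15.4 FPKM and KO 17.27, 16.01 and 18.59 FPKM, and the groups overlapped (0.13 ± 0.07, not called). Pola1, the catalytic subunit of polymerase alpha, rose in 4T1 from 7.25, 7.93 and 6.90 FPKM to 10.12, 10.4 and 9.5 FPKM (0.36 ± 0.06). It lies on chromosome X, whose 375 tested genes had a median log2 change of 0.3 in 4T1, and it was not called relative to that median. In EMT6, Pola1 held 13.12, 13.35 and 13.23 FPKM in the controls against 13.1, 13.13 and 13.28 FPKM in KO. Pole, the catalytic subunit of polymerase epsilon, stood at 13.02, 13.82 and 13.59 FPKM in the 4T1 controls and at 14.5, 14.3 and 14.5 FPKM in KO with no call (0.02 ± 0.05), and fell in EMT6 from 8.04, 7.44 and 7.33 FPKM to 6.02, 6.21 and 6.81 FPKM (-0.26 ± 0.07). Prim1 and Prim2, the primase subunits, were called lower in both lines, at log2 changes between -0.14 and -0.22. Their EMT6 adjusted p were 0.0443 and 0.0444, and DESeq2 called neither there. In 4T1, DESeq2 did not call Prim1, and both 4T1 calls were lost with total-count scaling and relative to chromosome medians. Leaving out 4T1 control 1, 4T1 control 3 or 4T1 KO 1 ended the 4T1 call of Prim1, and leaving out 4T1 control 1 or 4T1 KO 2 that of Prim2.

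Of the 11 genes of the clamp, its loaders, the single-strand binding protein RPA and Okazaki fragment maturation, 2 were called higher and 7 lower in 4T1. In EMT6, 4 were called higher and 1 lower. That is 81.8% called in 4T1 and 45.5% in EMT6, where 57.0% and 56.0% of all tested genes were. Pcna, the sliding clamp, stood at 98.4, 95.9 and 97.8 FPKM in the 4T1 controls and at 96.5, 91.5 and 91.9 FPKM in KO, which overlap (-0.14 ± 0.04, a call lost with total-count scaling). In EMT6 it rose from 103.3, 123.1 and 108.8 FPKM to 136.6, 128.9 and 124.7 FPKM (0.22 ± 0.07). The EMT6 call of Pcna was lost when EMT6 control 1 or EMT6 KO 1 was left out, and the 4T1 call without 4T1 KO 2. The clamp loader subunits did not move as 1 unit. Rfc5 fell in 4T1 from 17.6, 16.3 and 18.4 FPKM to 14.4, 14.2 and 14.6 FPKM (-0.36 ± 0.05), and in EMT6 its controls at 13.4, 15.7 and 13.4 FPKM overlapped its KO libraries at 16.5, 15.4 and 14.6 FPKM. Rfc3 rose in EMT6 from 11.4, 12.6 and 11.5 FPKM to 15.5, 15.8 and 15.1 FPKM (0.39 ± 0.07), and its 4T1 libraries overlapped at 13.9, 12.1 and 12.5 FPKM in control and 11.5, 12.4 and 12.5 FPKM in KO (-0.16 ± 0.06, adjusted p = 0.0346). That 4T1 call was lost with DESeq2, with total-count scaling and when 4T1 control 1, 4T1 KO 1 or 4T1 KO 2 was left out. Rfc2 fell slightly in 4T1, from 11.9, 11.8 and 12.9 FPKM to 11.5, 10.7 and 11.4 FPKM (-0.20 ± 0.05), and rose in EMT6, from 11.3, 12.1 and 11.9 FPKM to 13.9, 12.9 and 14.2 FPKM (0.22 ± 0.06). Rfc4 went the other way round: 20.2, 17.8 and 18.6 FPKM against 22.2, 22.5 and 23.4 FPKM in 4T1 (0.19 ± 0.07), and 24.1, 24.9 and 28.4 FPKM against 18.01, 19.05 and 20.51 FPKM in EMT6 (-0.43 ± 0.08). Its 4T1 call was lost with DESeq2, with no low-count filter, and when any library but 4T1 control 1 was left out. Rfc1, the large subunit, fell by 0.13 on the log2 scale in 4T1, a call lost with total-count scaling, and was not called in EMT6.

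Rpa2, the middle subunit of RPA, was called higher in both lines. It stood at 15.1, 13.8 and 12.5 FPKM in the 4T1 controls and at 15.8, 17.2 and 17.1 FPKM in KO (0.19 ± 0.07). In EMT6 it rose from 14.8, 15.3 and 14.9 FPKM to 19.7, 20.8 and 20.7 FPKM (0.44 ± 0.07, adjusted p = 2.37e-05). The EMT6 groups stood well apart, whereas in 4T1 the highest control and the lowest KO library were close and the call was lost when 4T1 control 3 or 4T1 KO 2 was left out. Rpa1, the large subunit, fell by 0.16 in 4T1 and was not called in EMT6 (-0.05 ± 0.06). Fen1, the flap nuclease of Okazaki fragment maturation, was called lower in 4T1 (-0.37 ± 0.12), with 84.2% of its exonic bases shared with other-strand genes, Tmem258 among them, so its counts are uncertain too. Lig1, the ligase, and Dscc1, of the alternative clamp loader, were called in neither line.

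Nucleotide supply held the gene with the largest increase in EMT6. Ung, the uracil DNA glycosylase that removes uracil from DNA, fell in 4T1 from 4.70, 4.77 and 5.07 FPKM to 3.91, 3.81 and 3.57 FPKM (-0.44 ± 0.08) and rose in EMT6 from 2.06, 1.89 and 1.27 FPKM to 3.43, 3.85 and 3.11 FPKM (1.01 ± 0.15). The groups did not overlap, and the difference of 1.44 ± 0.17 was the largest between the lines (adjusted p = 3.13e-07). Rrm2, the small subunit of ribonucleotide reductase that limits the enzyme in S phase, fell in 4T1 from 106.8, 105.8 and 109.3 FPKM to 86.2, 85.2 and 76.3 FPKM (-0.46 ± 0.05, adjusted p = 2.47e-08). Its EMT6 controls at 121.3, 131.3 and 105.9 FPKM spanned the KO libraries at 127.3, 120.6 and 128.3 FPKM. Rrm1, the large subunit, was called higher in EMT6 (0.18 ± 0.06) and not called in 4T1 (0.09 ± 0.04). Tyms, thymidylate synthase, stood at 10.9, 10.9 and 10.7 FPKM in the 4T1 controls and at 10.6, 10.4 and 9.86 FPKM in KO (-0.15 ± 0.06), and rose in EMT6 from 14.7, 16.2 and 13.2 FPKM to 18.8, 19.0 and 18.3 FPKM (0.35 ± 0.07). Its 4T1 call was lost with DESeq2, with total-count scaling and when 4T1 control 1, 4T1 control 2 or 4T1 KO 3 was left out. Tk1, thymidine kinase of the salvage route, fell in EMT6 from 26.7, 29.4 and 24.9 FPKM to 19.8, 20.3 and 19.9 FPKM (-0.43 ± 0.07), while its 4T1 libraries stood at 25.1, 23.9 and 24.6 FPKM in control and at 26.1, 27.6 and 26.9 FPKM in KO with no call. In EMT6 KO the thymidylate synthase and thymidine kinase transcripts thus moved in opposite directions. Dut, the dUTPase, rose in EMT6 (0.18 ± 0.06).

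Of the 4 genes of chromatin and histone supply, 1 was called in 4T1 (Slbp) and 2 in EMT6 (Uhrf1 and Slbp). That is 25% and 50%, where 57.0% and 56.0% of all tested genes were called. Uhrf1, which directs maintenance DNA methylation at forks, rose in EMT6 from 42.8, 46.7 and 38.0 FPKM to 66.7, 64.2 and 67.1 FPKM (0.64 ± 0.07, adjusted p = 1.28e-06). In 4T1 it stood at 65.6, 64.5 and 67.1 FPKM in control cells against 70.03, 69.67 and 66.92 FPKM in KO, which is the level that EMT6 KO reached. The difference of 0.63 ± 0.08 between the lines passed the interaction test (adjusted p = 6.35e-07). Slbp, the histone mRNA stem-loop binding protein, fell in 4T1 from 25.9, 23.6 and 25.1 FPKM to 22.2, 21.4 and 21.7 FPKM (-0.27 ± 0.05) and rose in EMT6 from 18.4, 19.6 and 15.7 FPKM to 21.6, 20.8 and 20.8 FPKM (0.24 ± 0.07). The EMT6 call of Slbp was lost when EMT6 KO 1 was left out. Chaf1a and Chaf1b, subunits of the chromatin assembly factor, were called in neither line, and Chaf1a shares 52.5% of its exonic bases with Ubxn6 on the other strand.

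**Figure D3:**
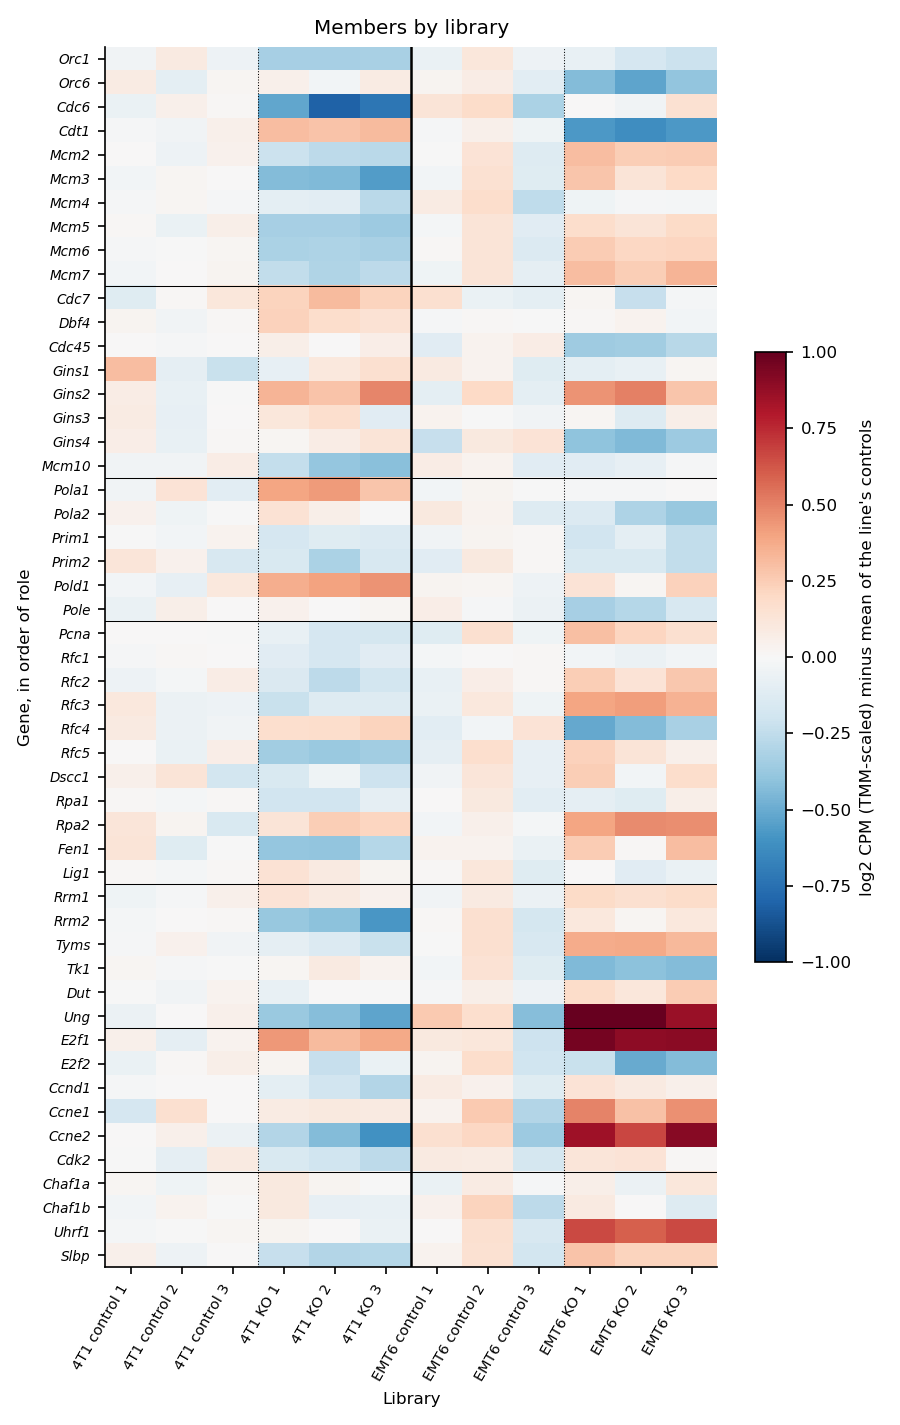
Log2 CPM (TMM-scaled) of the 51 genes (vertical axis, in order of role) in the 12 libraries (horizontal axis), each relative to the mean of its line's 3 controls; red is higher and blue lower, on a scale from -1 to 1. E2f1, Ung, Ccne2 and Uhrf1 are the darkest red in the EMT6 KO libraries, Cdc6 the darkest blue in 4T1 KO, and EMT6 control 3 is bluer than the other EMT6 controls across most genes.

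The effect of the KO differed between the lines for most of these genes, as it did for most genes tested in both lines. The interaction test called 35 of the 51, with 23 higher and 12 lower in EMT6 relative to 4T1. Of the 12006 genes tested in both lines, 59.9% were called (29.7% higher and 30.2% lower). The median absolute log2 difference was 0.351 for the 51 and 0.413 for all of those genes. A total of 14 of the 51 (27.5%) were called in opposite directions in the 2 lines, where 19.6% of all genes tested in both lines were. Of these, 12 were lower in 4T1 and higher in EMT6 (Ccne2, Mcm2, Mcm3, Mcm5, Mcm6, Mcm7, Pcna, Rfc2, Rfc3, Slbp, Tyms and Ung; 23.5% of the 51, against 10.2% of all genes) and 2 were higher in 4T1 and lower in EMT6 (Cdt1 and Rfc4; 3.92% against 9.42%). That split depended on the setting: it was 8 and 5 with total-count scaling, 8 and 4 at a mean of at least 5 FPKM, and 5 and 3 relative to chromosome medians. All 14 passed the interaction test. They were picked by opposite calls in the same libraries, so that outcome was nearly fixed in advance. Only 5 of the 51 (9.8%, against 14.9% of all genes) were called in the same direction: E2f1, Gins2 and Rpa2 higher, Prim1 and Prim2 lower. At a stricter adjusted p of 0.01, 7 of the 14 remained opposite: Ccne2, Cdt1, Mcm2, Mcm6, Mcm7, Rfc2 and Ung.

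In both lines the median log2 change of all tested genes differed between chromosomes, from -0.205 (chromosome 12) to 0.3 (chromosome X) in 4T1 and from -0.271 (chromosome 14) to 0.268 (chromosome X) in EMT6. Chromosome 5 carries 11 of the 51 genes and 6 of the 14 opposite ones (Mcm7, Rfc2, Rfc3, Slbp, Tyms and Ung), and its median was -0.095 in 4T1 and 0.109 in EMT6. Chromosome 1, with Mcm3 and Mcm6, had medians of -0.155 and 0.118. Chromosome 8, with Cdt1, Orc6 and Gins4 and also Mcm5, had medians of 0.054 and -0.181, and chromosome 16, with Rfc4 and Cdc45, 0.046 and -0.176. Over all chromosomes, 24 of the 34 called genes of the set in 4T1 (70.6%) had the sign of their chromosome's median, and so did 66.8% of all called genes, which make up those medians. The 10 others were Ccnd1, Ccne2, Cdc7, Dbf4, Fen1, Mcm10, Mcm4, Mcm5, Orc1 and Pcna. In EMT6, 23 of the 30 called genes (76.7%) had that sign, against 67.9% of all called genes, and the 7 others were E2f2, Gins2, Mcm5, Pola2, Pole, Prim1 and Prim2.

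When each gene was tested against the median of its chromosome, an alternative added after the data were seen, 8 of the 51 (15.7%) were called in opposite directions, where 18.7% of all genes tested in both lines were. The share that was lower in 4T1 and higher in EMT6 was then 9.8% of the 51 and 9.51% of all genes. Of the original 14, Ccne2, Cdt1, Mcm2, Mcm5, Mcm7 and Ung kept both calls. Relative to its chromosome, Mcm5 stood at -0.40 ± 0.04 in 4T1 and 0.34 ± 0.06 in EMT6, Cdt1 at 0.25 ± 0.05 and -0.41 ± 0.06, Ccne2 at -0.52 ± 0.07 and 0.69 ± 0.13, and Ung at -0.35 ± 0.08 and 0.90 ± 0.15. Mcm3 and Mcm6 kept their 4T1 decrease (-0.32 ± 0.05 and -0.16 ± 0.04) and lost the EMT6 call (0.08 ± 0.07 and 0.11 ± 0.06). Rfc2, Rfc3, Rfc4 and Tyms lost the 4T1 call, and Pcna, Rfc2 and Slbp the EMT6 call.

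**Figure D4:**
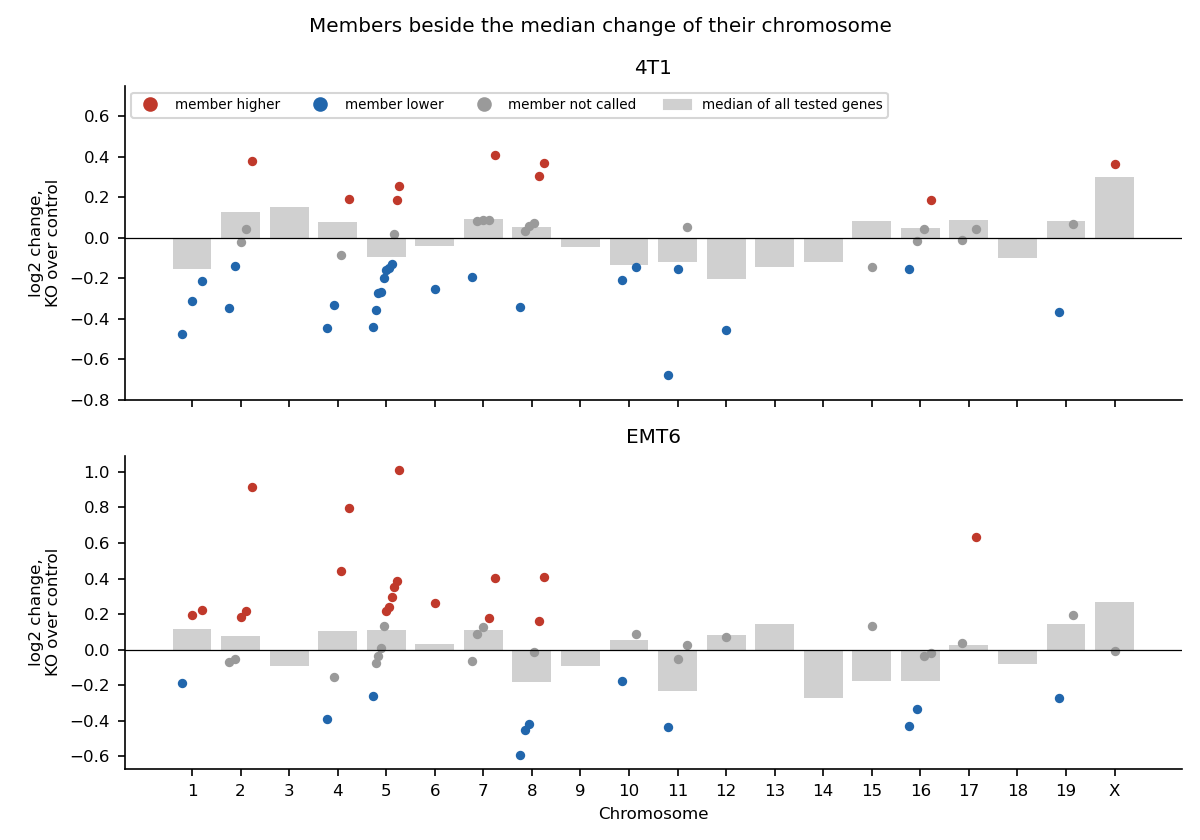
Log2 change of KO over control (vertical axis) for the 51 genes (points, coloured by call) on each chromosome (horizontal axis), over the median log2 change of all tested genes of that chromosome (grey bars), in 4T1 (top) and EMT6 (bottom). The bars run from -0.205 to 0.3 in 4T1 and from -0.271 to 0.268 in EMT6, a range similar to the changes of many of the genes.

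The control groups of the 2 lines were compared to see where these genes started. EMT6 controls were lower than 4T1 controls for 22 of the 51 genes and higher for 10, where 75.0% of all 13301 tested genes were called (36.8% higher and 38.2% lower in EMT6), and line cannot be told apart from anything else that differed between the cultures. By FPKM, 34 of the 51 did not overlap between the control groups, where 76.5% of all tested genes did not. Ccnd1 had the largest difference: 309.9 ± 3.96 FPKM in 4T1 controls and 68.9 ± 5.01 FPKM in EMT6 controls (SD, n = 3; log2 -2.17 ± 0.07). In the annotation, 23.4% of the exonic bases of Ccnd1 are shared with a gene on the other strand. Ung (-1.49 ± 0.14), Ccne2 (-1.16 ± 0.12), E2f1 (-1.04 ± 0.09), Mcm3 (-0.91 ± 0.07), Pole (-0.83 ± 0.06) and Mcm6 (-0.82 ± 0.07) were also lower in EMT6. Pola1 (0.85 ± 0.07) and E2f2 (0.98 ± 0.11) were higher in EMT6. This comparison shares its control libraries with both KO comparisons, so its values are given only beside theirs.

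Outside the 51 genes, several regulators upstream of E2F were called. Cdkn1a, which encodes the Cdk inhibitor p21, fell in both lines: from 20.6 to 21.9 FPKM in 4T1 controls to 6.92 to 7.75 FPKM in KO (-1.61 ± 0.06, adjusted p = 9.4e-16), and from 23.9 to 26.3 FPKM to 12.8 to 13.1 FPKM in EMT6 (-0.94 ± 0.06, adjusted p = 3.77e-09). Other Cdk inhibitor genes did not follow it. By FPKM, Cdkn2c and Cdkn2d were higher in KO in both lines without overlap, and Cdkn1b overlapped in both. Mean Cdkn2c went from 35.1 to 44.3 FPKM in 4T1 and from 57.4 to 74.8 FPKM in EMT6. Mean Cdkn2d went from 15.6 to 27.1 FPKM and from 11.5 to 17.2 FPKM. The pocket protein genes Rb1 and Rbl2 went in opposite directions in the lines, and the remaining one, Rbl1, was called in neither (-0.06 ± 0.05 in 4T1 and 0.12 ± 0.06 in EMT6). Rb1 rose in 4T1 from 4.29 to 4.87 FPKM in the controls to 8.47 to 8.99 FPKM in KO (0.86 ± 0.07) and fell in EMT6 from 7.16 to 8.47 FPKM to 4.80 to 5.35 FPKM (-0.66 ± 0.08). Rbl2, the gene of p130, rose by 0.64 ± 0.06 in 4T1 and changed by -0.41 ± 0.08 in EMT6. The interaction test called both (adjusted p = 3.34e-11 for Rb1 and 7.94e-09 for Rbl2). Cdk4, the cyclin D kinase, changed as the MCM genes did, by -0.44 ± 0.04 in 4T1 and 0.30 ± 0.06 in EMT6. E2f4, which encodes an E2F that works as a repressor with p107 and p130, fell in both lines (-0.32 ± 0.05 and -0.62 ± 0.07). Rb1 lies on chromosome 14, whose median log2 change was -0.12 in 4T1 and -0.271 in EMT6. Rbl2 and E2f4 lie on chromosome 8 (0.054 and -0.181) and Cdk4 on chromosome 10 (-0.136 and 0.057). Cdkn2a, the locus of p16 and p19Arf, was listed at 0 FPKM in all 4T1 libraries and stood at 0.3, 0.28 and 0.44 FPKM in EMT6 controls and 3.52, 2.98 and 2.60 FPKM in EMT6 KO (3.12 ± 0.32). Of the 29 listed G1/S regulators outside the 51, 26 were tested in each line. In 4T1, 8 were called higher and 11 lower, and in EMT6, 5 higher and 7 lower. Those called made up 73.1% in 4T1 and 46.2% in EMT6, against 57.0% and 56.0% of all tested genes.

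**Figure D5:**
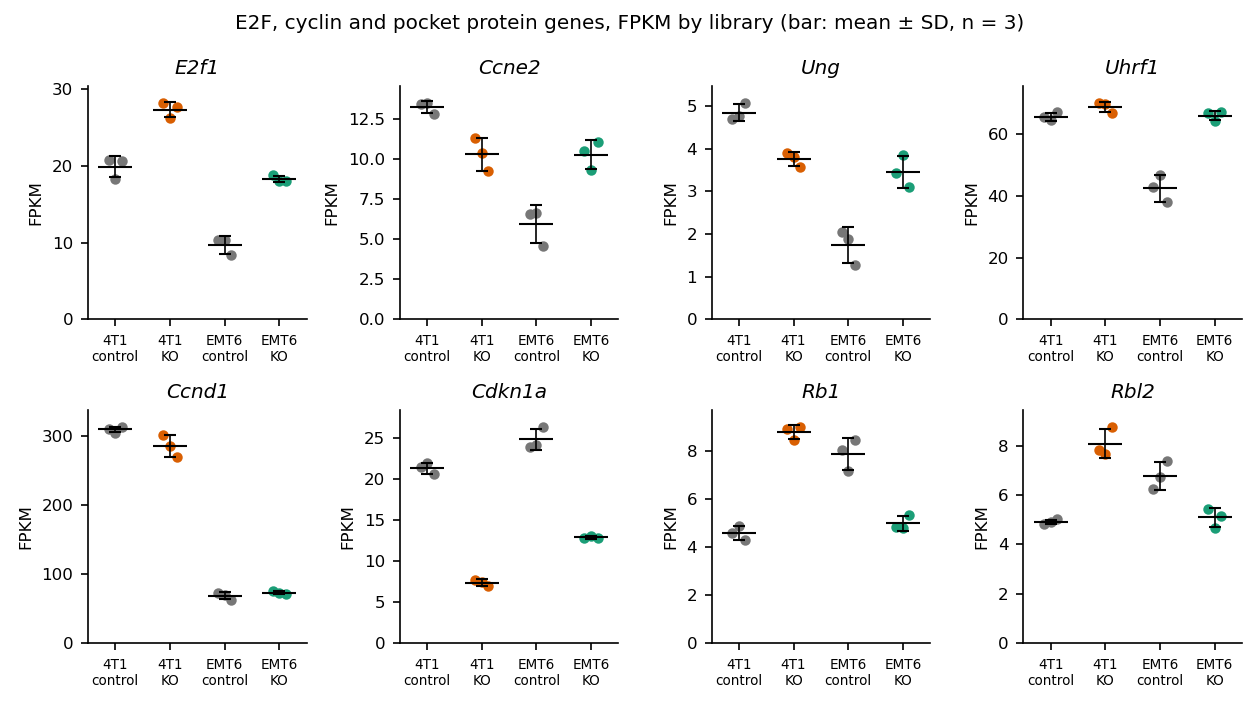
FPKM of E2f1, Ccne2, Ung, Uhrf1, Ccnd1, Cdkn1a, Rb1 and Rbl2 in each of the 12 libraries (vertical axes start at 0; points are libraries, bars are the mean and SD of 3 libraries). E2f1 steps up and Cdkn1a steps down from control to KO in both lines, whereas Ccne2 and Ung fall in 4T1 and rise in EMT6, and Rb1 and Rbl2 do the reverse.

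The wider replication machinery and the genes of mitosis were counted in the same way. Of 41 further replication genes, 6 were called higher and 21 lower in 4T1, and 8 higher and 11 lower in EMT6. That is 65.9% called in 4T1 and 46.3% in EMT6, where 57.0% and 56.0% of all tested genes were called. Orc2, another origin recognition subunit (-0.69 ± 0.06 and 0.24 ± 0.07), and Dtymk, thymidylate kinase (-0.40 ± 0.06 and 0.50 ± 0.07), fell in 4T1 and rose in EMT6. Both lie on chromosome 1. Rnaseh2a, a subunit of the ribonuclease that removes ribonucleotides from DNA, rose in 4T1 and fell in EMT6 (0.35 ± 0.06 and -0.47 ± 0.07), and it lies on chromosome 8 with Cdt1. The nucleases Exo1 (-0.65 ± 0.06) and Dna2 (-0.85 ± 0.10) fell in 4T1 and were not called in EMT6. Mtbp, a partner of the origin-firing factor treslin, and Cdca7 fell in both lines. The list of 30 genes of G2/M held 23 called higher and 1 lower in 4T1 (80% called, and 66.7% in EMT6). Those higher included Cdc25b (0.67 ± 0.05), Espl1 (0.61 ± 0.05), Kif4 (0.60 ± 0.05) and Cenpa (0.53 ± 0.05). In EMT6, 14 of the 30 were called higher and 6 lower, with Cenpf (0.65 ± 0.06), Aurka (0.37 ± 0.06), Plk1 (0.37 ± 0.06) and Bub3 (0.35 ± 0.06) among those higher and Cdc25b and Espl1 among those lower (-0.16 ± 0.06 and -0.32 ± 0.06). Summed over the 30 genes, the G2/M level rose from between 5972 and 6104 CPM in 4T1 controls to between 7545 and 7666 CPM in 4T1 KO, whereas the 10 licensing genes summed to 1995 to 2092 CPM in 4T1 controls and 1780 to 1819 CPM in 4T1 KO. In EMT6 the G2/M sum was 4915 to 5090 CPM in the controls and 5071 to 5382 CPM in KO, and the licensing sum 1530 to 1812 CPM and 1757 to 1817 CPM, and both overlapped between the groups. In these bulk samples, fewer cells in a cell cycle phase and less RNA per cell cannot be told apart.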

How the data were processed

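Cultured cells of each line were sequenced after mRNA capture on beads, per the labels' protocols. The submitters' processing notes name GRCm38 and list HTSeq 0.6.1, HISAT2 2.2.1, DESeq2 and cutadapt 1.9.1, without the roles of the tools, and no source used here states the strand setting. The deposited tables hold raw read counts per gene and FPKM, which the authors scaled by library total and exonic gene size. The counts were analysed with edgeR 4.0.16 in R 4.3.3 (filterByExpr, TMM, robust quasi-likelihood test, 2-sided, Benjamini-Hochberg over all tested genes), each line alone, and in a fit of all 12 libraries for the interaction. The ± after a log2 change is the standard error of the fit. Depth was 13705612 to 19761604 counts per library. The biological coefficient of variation between libraries of a group, as edgeR estimates it, was 4.82% in 4T1 and 6.73% in EMT6. No 2 libraries of a group were identical. The fits were also run on simulated data, with a spread set below the EMT6 estimate and far fewer changed genes than were called here. The pass mark for recovery covered only changes larger than nearly all those of the 51 genes, so it does not bear on small changes. The gene coordinates of the tables are those of another build than GRCm38 and were not used, while exon overlap came from GENCODE M21 by gene identifier and promoters from RefSeq by symbol. Alternatives were DESeq2 1.42.0, limma-voom (limma 3.58.1), DESeq2 size factors, total-count scaling, no low-count filter, a mean of at least 5 FPKM, an adjusted p of 0.01, leaving out each library, a replicate block and chromosome centring. Members, gene lists and tests were chosen with earlier results of these data known. Values in every library are given for the 8 called genes with the lowest adjusted p per line, the 6 with the lowest interaction p, the 6 with the lowest p between controls, and those called in opposite directions. From each list outside the 51, the 4 called genes with the lowest p per line were taken by rule, and the few others named were chosen after their values were seen.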

Additional observations from a re-analysis of the deposited data

Results flagged for a closer look

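The KO effect differed between the lines, by the interaction test of edgeR over all 12 libraries, for 35 of the 51 genes. That is 68.6%, where 59.9% of the 12006 genes tested in both lines were called. The values are the log2 effect in EMT6 minus that in 4T1. The effect was higher in EMT6 for Ung (1.44), Ccne2 (1.22), Cdc6 (0.69), Mcm3 (0.66), Uhrf1 (0.63), Mcm7 (0.54), Fen1 (0.54), Rfc3 (0.53), Mcm6 (0.52), E2f1 (0.52), Rrm2 (0.51), Mcm2 (0.50), Slbp (0.49), Mcm5 (0.48) and Tyms (0.48). It was also higher, by less, for Rfc5 (0.47), Rfc2 (0.40), Pcna (0.34), Cdk2 (0.28), Mcm10 (0.26), Ccnd1 (0.26), Rpa2 (0.23) and Dut (0.18). The effect was lower in EMT6 for Cdt1 (-0.91), Rfc4 (-0.64), Orc6 (-0.51), Gins4 (-0.51), Tk1 (-0.51), Cdc45 (-0.40), Pola1 (-0.39), Pola2 (-0.36), Cdc7 (-0.35), Pold1 (-0.30), Pole (-0.30) and Dbf4 (-0.20). The chromosome medians described above also differed between the lines, and their part in these differences was not tested. Groups of 3 libraries are too small to test a single library as an outlier.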

How the results depend on the processing

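In 4T1, 9 genes called higher and 25 lower became 15 and 14 with scaling by total counts, and 15 were lower at a mean of at least 5 FPKM, where 47 were tested. In EMT6, 19 called higher became 12 at an adjusted p of 0.01. The 14 opposite calls became 8 with chromosome centring and 7 at an adjusted p of 0.01, and 10 to 15 when a library was left out. Leaving out a library gave 7 to 9 higher and 20 to 24 lower calls in 4T1, and 14 to 20 higher and 9 to 11 lower in EMT6. Some uncalled changes reversed in sign. In 4T1 these were Uhrf1 (0.069 with total-count scaling, 0.053 at a mean of at least 5 FPKM, -0.033 to 0.014 with a library left out), Orc6 (-0.021 with chromosome centring, -0.016 to 0.08 with a library left out) and Pole (-0.01 with no low-count filter, -0.008 to 0.053 with a library left out). In EMT6 they were Cdc6 (-0.122 to 0.124 with a library left out, -0.122 without EMT6 control 3 and -0.023 without EMT6 KO 3), Rrm2 (-0.013 with chromosome centring, -0.016 to 0.153 with a library left out), Ccnd1 (-0.021 with chromosome centring) and Pola1 (0.03 with no low-count filter, -0.017 to 0.009 with a library left out). The cause was not tested. The replicate numbers showed no sign of pairing the libraries. Same-numbered deviations correlated at -0.0247, 0.0141 and 0.0398 in 4T1 and at -0.144, -0.0429 and -0.136 in EMT6. Deviations from a mean of 3 libraries cannot exclude pairing. With a replicate block, 9 were called higher and 25 lower in 4T1, 18 and 9 in EMT6, and 22 and 12 in the interaction, and 13 were opposite.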
